A study of Mus musculus with 18 samples.

Results

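The 9 genes described here were Dll1, Dll4 and Jag1, which encode Notch ligands, Notch1, Notch2 and Notch3, which encode the receptors, Mfng, which encodes a glycosyltransferase of the receptors, and Hes1 and Hes6, which encode transcription factors of the Hes family. They were chosen by name, and all 9 were found among the 32286 genes and other features of the count tables. The study compared single-cell transcriptomes of sorted GFP+ crypt cells from the mouse ileum in which the histone methyltransferase gene Setdb1 was either intact or inactivated. Each of 4 groups held 2 libraries, which makes 8 libraries of the 18 samples, and the other samples were not analysed here. The WT group of the Lgr5+ experiment came from mice with the Lgr5-GFP-CreERT2 allele, and its Setdb1-KO group from Lgr5-GFP-CreERT2/Setdb1lox/lox mice. The WT and Setdb1-KO groups of the lineage-traced experiment carried the same alleles together with the nTnG reporter. All animals, controls included, were C57Bl6 mice of 60 to 65 days that carried the Lgr5 knock-in and had received a single intraperitoneal dose of 70 mg/kg tamoxifen 5 days before the sort. The reporter keeps GFP on in all progeny of cells in which Cre was active, so this experiment holds the descendants of Lgr5+ cells, while in the Lgr5+ experiment GFP marks cells that transcribe the knock-in at the time of the sort. The knock-in allele is silenced in a mosaic fashion, and the deleted exon of Setdb1 lies outside the region read by 3′ counting, so neither design shows in each cell whether Setdb1 was lost.

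In the intestinal crypt, Notch signalling separates the absorptive from the secretory fate. A ligand of the Delta or Jagged type on one cell binds a Notch receptor on its neighbour, the receptor is cleaved, and its intracellular part joins Rbpj in the nucleus and switches on Hes1. Hes1 represses Atoh1, the transcription factor that commits cells to the secretory lineage, so a cell that receives the signal stays a stem or absorptive cell, whereas a cell that escapes it becomes secretory and presents Delta ligands itself. Mfng adds sugars to the extracellular part of the receptors and alters which ligands they respond to, and Hes6 is known as an antagonist of Hes1 in other tissues.

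In the annotation of mouse build GRCm38, Dll1 lies on the minus strand at chr17:15367354-15376872, Dll4 on the plus strand at chr2:119325784-119335962 and Jag1 on the minus strand at chr2:137081456-137116644. Notch1 spans chr2:26457903-26516663 on the minus strand, Notch2 chr3:98013527-98150361 on the plus strand and Notch3 chr17:32120820-32166852 on the minus strand. Mfng is at chr15:78755882-78773475 and Hes6 at chr1:91411483-91414038, both on the minus strand, and Hes1 is at chr16:30064384-30067796 on the plus strand. Dll4, Notch1 and Notch3 overlap genes on the opposite strand that are also counted in the files.

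Both Delta ligands were higher in the secretory precursor-like cells described below, and the windows before their starts are shown because the factors that mark those cells, Atoh1 and Neurog3, are helix-loop-helix proteins that bind the E-box CANNTG. Each window holds the 250 bases before a RefSeq transcript start in GRCm38.p6, written 5′ to 3′ on the strand of the gene, with matches to CANNTG in capitals. RefSeq gave 2 starts for Dll1, with the windows chr17:15376933-15377182 (window 1) and chr17:15375824-15376073 (window 2), both on the minus strand, and 1 for Dll4, with the window chr2:119325534-119325783 on the plus strand.
Dll1 window 1: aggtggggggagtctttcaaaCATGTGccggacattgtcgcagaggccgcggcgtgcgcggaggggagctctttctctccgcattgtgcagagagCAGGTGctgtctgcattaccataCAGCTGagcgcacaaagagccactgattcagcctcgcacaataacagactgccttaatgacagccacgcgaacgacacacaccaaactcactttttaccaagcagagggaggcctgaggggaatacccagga
Dll1 window 2: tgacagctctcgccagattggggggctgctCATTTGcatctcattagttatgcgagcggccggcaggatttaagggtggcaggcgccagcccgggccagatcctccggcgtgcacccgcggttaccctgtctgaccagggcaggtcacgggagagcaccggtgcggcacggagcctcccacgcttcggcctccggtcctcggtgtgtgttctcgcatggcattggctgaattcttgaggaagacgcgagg
Dll4 window: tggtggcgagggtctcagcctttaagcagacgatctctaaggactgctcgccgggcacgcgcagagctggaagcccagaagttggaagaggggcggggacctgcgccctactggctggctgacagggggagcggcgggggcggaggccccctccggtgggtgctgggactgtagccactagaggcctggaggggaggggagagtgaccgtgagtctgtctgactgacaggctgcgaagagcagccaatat

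Window 1 of Dll1 held 3 E-boxes (first CATGTG, then CAGGTG, last CAGCTG), window 2 held a single one of the form CATTTG, and the window of Dll4 held none. The E-box is its own reverse complement and so reads the same on both strands, and 66.2% of the 32851 RefSeq promoter windows of this length held at least 1. The Rbpj motif TGGGAA, searched on both strands, was in 21.6% of all windows and in none of the windows of the 7 members with an entry. The N-box CACNAG, to which Hes proteins bind, was in 36.7% of all windows on either strand and once in that of Dll4. No match overlapped another in these windows. Promoter entries for Hes1 and Mfng were not used here.

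Setdb1 itself was read first, as a check of the labels. Over all kept cells of the Lgr5+ experiment, its level was 11.3, 9.93, 5.32 and 6.21 CPM (UMIs of the gene per 1000000 UMIs counted), where values are given here and below in the order WT 1, WT 2, Setdb1-KO 1 and Setdb1-KO 2. Both Setdb1-KO libraries were below both WT libraries, and the change was -0.85 (SE 0.14, edgeR adjusted p = 0.047), as log2 of Setdb1-KO over WT. This call is at the threshold and was lost when any library but Setdb1-KO 2 was left out, without the filter on low counts, with a doubled UMI minimum and with the replicate number as a block, with an edgeR or DESeq2 adjusted p of 0.0022 to 0.14 over all alternatives. In the lineage-traced experiment the levels were 6.11, 4.21, 10.4 and 7.85 CPM, so Setdb1 was not lower in the libraries labelled Setdb1-KO, with a log2 of 0.24 (SE 0.23, edgeR adjusted p = 0.60), and directions there are given for libraries so labelled. In lineage-traced stem-like cells Setdb1 was at 12.0, 6.73, 9.67 and 8.43 CPM and in goblet-like cells at 10.0, 8.35, 12.0 and 7.20 CPM, where the groups overlapped, and in dividing progenitor-like cells at 8.29, 6.32, 12.1 and 8.54 CPM, higher in both libraries labelled Setdb1-KO. None of these differences passed the threshold (edgeR adjusted p = 0.90, 0.97 and 0.97). The study reports that PCR on sorted GFP+ cells of this line verified the deletion of the exon, which 3′ counts cannot show.

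Setdb1 in the Lgr5+ experiment was also read by class, and whether its difference varied between classes was not tested. In stem-like cells Setdb1 was at 13.6, 13.2, 4.20 and 8.62 CPM and in secretory precursor-like cells at 18.9, 9.00, 2.73 and 7.48 CPM, and the groups did not overlap. In dividing progenitor-like cells the levels were 11.7, 9.80, 5.99 and 5.67 CPM, again without overlap. In goblet-like cells it was at 6.42, 6.1, 5.19 and 5.39 CPM, also without overlap but with groups close to each other. In enterocyte-like cells, at 4.75, 5.64, 2.91 and 5.01 CPM, the groups overlapped. None of these 5 differences passed the threshold, with an edgeR adjusted p of 0.18 in stem-like, 0.093 in dividing progenitor-like, 0.26 in precursor-like, 0.98 in goblet-like and 0.88 in enterocyte-like cells. The study attributes mature cells in this sort to an incomplete enrichment of GFP+ cells, so mature cells of the Lgr5+ experiment need not have lost Setdb1, and in those classes the genotype is that of the mouse.

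The Lgr5+ libraries held 2894 to 11423 kept barcodes of 1000 to 18000 UMIs, with a median of 4686 to 9336 UMIs. The lineage-traced libraries held 3882 to 10239 of 500 to 18000 UMIs, with a median of only 961 to 2085. Total UMIs per library were 50722926 to 81876035 and 16881518 to 43046925. Barcodes were placed in a class by UMIs of fixed markers that included no member. In the Lgr5+ experiment this gave 5943 stem-like, 5185 dividing progenitor-like, 901 secretory precursor-like, 3737 goblet-like, 306 Paneth-like, 900 enteroendocrine-like, 692 tuft-like and 1354 enterocyte-like barcodes of 25218. In the lineage-traced experiment the same classes held 2892, 3580, 148, 3661, 1524, 218, 346 and 952 of 26797, and 43.0% to 67.5% of barcodes per library had no class. The secretory precursor-like class, marked by Atoh1, Sox4, Colca2, Cbfa2t3 and Neurog3, changed to 828 and 941 Lgr5+ barcodes, and to 122 and 203 lineage-traced ones, with marker odds of at least 1.5 and 3 times those of empty droplets in place of 2. Every class had its own markers among its 10 leading genes, as its assignment by them makes likely. None came from the marker list of another class. In lineage-traced precursor-like cells these genes also held Gip and Retnlb, leading genes of enteroendocrine-like and goblet-like cells. Goblet markers there had a median of 318, 129, 250 and 173 per 10k UMIs, against 56.0, 69.0, 53.9 and 39.5 in stem-like cells. UMIs of T cell markers defined 57 Lgr5+ and 10 lineage-traced barcodes, and those of endothelial and mesenchymal markers none. Any pair of libraries of the same experiment shared 3 to 34 barcode sequences, at most 0.45% of the smaller library.

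Free RNA differed between the genotypes of both experiments. In the lineage-traced experiment Paneth marker genes gave 36.1% and 38.0% of the UMIs in empty droplets (barcodes under 100 UMIs) of the 2 WT libraries and 16.0% and 16.2% in those labelled Setdb1-KO. In kept barcodes they gave 34.1% and 31.5% against 7.36% and 4.98%, so that the kept barcodes of both WT libraries came close to their empty droplets in this share. Values over all kept lineage-traced cells include these barcodes and those without a class. When only barcodes with a class were used, 0 of 7 tested members were called between the genotypes there as well. In the Lgr5+ experiment the genotypes differed the other way, with 4.15% and 4.65% in empty droplets of the WT libraries and 8.37% and 7.80% in those of the Setdb1-KO libraries, while kept barcodes held 0.944, 1.10, 0.892 and 3.40%. Because CPM divide by all UMIs, a lower Paneth share raises the CPM of every other gene, and levels of the members in empty droplets are therefore given for comparison.

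Among the ligands, Dll1 was highest in secretory precursor-like and goblet-like cells, at 46.9 to 82.9 and 50.3 to 78.8 CPM against 4.94 to 6.54 CPM in stem-like cells. In stem-like cells of the Lgr5+ experiment Dll1 was at 4.94, 6.54, 5.30 and 5.59 CPM and in dividing progenitor-like cells at 4.00, 5.13, 3.87 and 6.56 CPM. In secretory precursor-like cells it was at 60.0, 82.9, 57.4 and 46.9 CPM, from 127, 129, 84 and 94 UMIs. In goblet-like cells it was at 50.4, 65.9, 78.8 and 50.3 CPM. All 4 libraries of the precursor-like and goblet-like classes lay above all 4 of the stem-like class, while the ranges of precursor-like and goblet-like cells overlapped. Tuft-like cells came next with 18.5, 20.6, 15.9 and 10.1 CPM, overlapping enteroendocrine-like cells with 14.5, 9.88, 11.7 and 8.47 CPM. Empty droplets of the same libraries held 14.1, 10.3, 9.53 and 8.20 CPM, so enteroendocrine-like cells were near the level of free RNA, and stem-like and enterocyte-like cells (1.42 to 5.01 CPM) lay below it in every library. Paneth-like cells gave only 2, 2, 3 and 5 UMIs. Dll1 passed the filter on low counts only through classes in which it was high, so the tests below add nothing to these levels. Against stem-like cells, in edgeR fits with the library as a block, log2 of the class over stem-like cells was 3.31 (SE 0.15, edgeR adjusted p = 1.5e-21) for secretory precursor-like, 3.57 (SE 0.13, edgeR adjusted p = 6.9e-26) for goblet-like and 1.26 (SE 0.25, edgeR adjusted p = 6.2e-05) for tuft-like cells, and the differences for Paneth-like and enteroendocrine-like cells did not pass the threshold of 0.05.

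**Figure D1:**
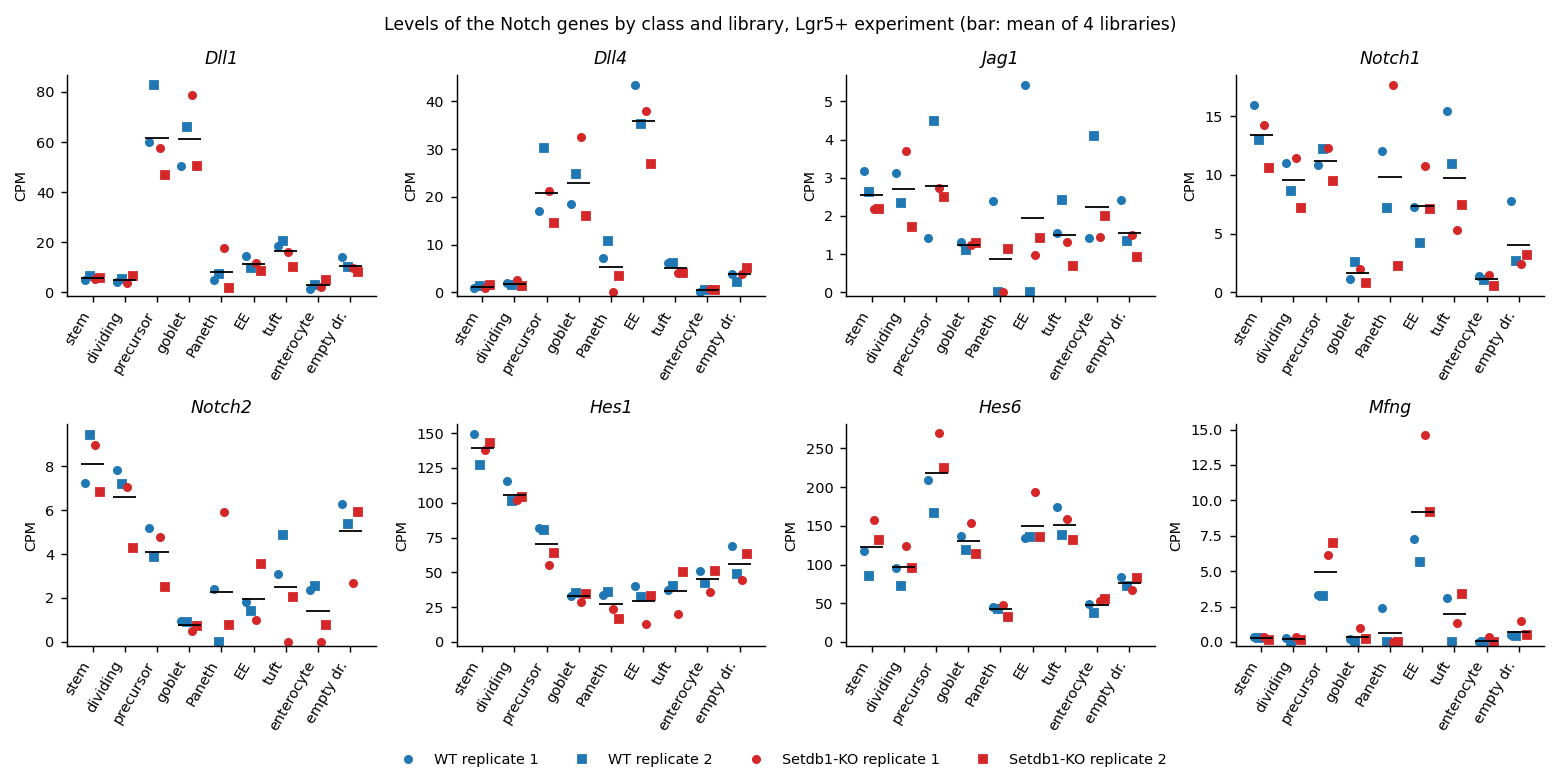
CPM (linear axes from 0) of 8 members in each class and in empty droplets of the Lgr5+ experiment, each point 1 library and each bar the mean of the 4 libraries. Dll1 stands at 46.9 to 82.9 CPM in secretory precursor-like cells against 4.94 to 6.54 CPM in stem-like cells, whereas Hes1 is highest in stem-like cells and Notch2 in stem-like and dividing progenitor-like cells, which overlap, and Notch3, with 3 UMIs in all, is not drawn.

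Dll4 shared the rise of Dll1 in precursor-like and goblet-like cells but, unlike Dll1, had its highest CPM, which are unscaled, in enteroendocrine-like cells. Stem-like cells held 0.988, 1.31, 0.913 and 1.46 CPM and secretory precursor-like cells 17.0, 30.2, 21.2 and 14.5 CPM. Goblet-like cells held 18.5, 24.8, 32.6 and 15.9 CPM and enteroendocrine-like cells 43.5, 35.3, 38.1 and 26.8 CPM. The ranges of precursor-like and goblet-like cells overlapped, those of goblet-like and enteroendocrine-like cells overlapped as well, although the enteroendocrine-like level was the higher within each library, and each of the 3 classes lay above the stem-like class and above empty droplets (3.88, 2.23, 3.87 and 5.01 CPM) in every library. Log2 against stem-like cells was 4.36 (SE 0.26, edgeR adjusted p = 3.3e-18) for enteroendocrine-like, 4.33 (SE 0.19, edgeR adjusted p = 1.3e-22) for goblet-like and 3.92 (SE 0.25, edgeR adjusted p = 1.5e-16) for secretory precursor-like cells. The first 2 of these scaled values were close, and these classes were not tested against each other. Without scaling beyond the total, the median gene moved by 0.55 in enteroendocrine-like and by -0.13 in goblet-like cells. Dll4 passed the filter on low counts only through classes in which it was high, so its tests add nothing to the levels. Tuft-like cells, at 6.16, 6.06, 3.97 and 4.05 CPM, were also higher, by 1.84 (SE 0.47, edgeR adjusted p = 0.0013), although their levels overlapped those of empty droplets. In Paneth-like cells Dll4 rose by 3.57 (SE 0.58, edgeR adjusted p = 4.9e-06) on 3, 3, 0 and 9 UMIs (7.20, 10.8, 0 and 3.38 CPM, below empty droplets in both Setdb1-KO libraries), and by 2.09 without scaling of the libraries beyond their total, where the median gene of these cells moved by -1.55.

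Jag1, a ligand of the Jagged type, stayed low throughout the Lgr5+ experiment and too few UMIs were counted for a test between classes. Its level was 3.18, 2.62, 2.19 and 2.19 CPM in stem-like cells, 1.42, 4.50, 2.73 and 2.49 CPM in secretory precursor-like cells and 1.32, 1.11, 1.24 and 1.29 CPM in goblet-like cells. Stem-like cells lay above goblet-like cells in all 4 libraries, while the precursor-like range spanned that of stem-like cells. Over all kept cells the level was 2.75, 3.04, 2.43 and 1.70 CPM, against 2.42, 1.34, 1.49 and 0.911 CPM in empty droplets.

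The receptors Notch1 and Notch2 were lower in goblet-like and enteroendocrine-like cells than in stem-like cells. Notch1 was at 15.9, 13.0, 14.2 and 10.6 CPM in stem-like cells and at 11.03, 8.63, 11.4 and 7.19 CPM in dividing progenitor-like cells of the Lgr5+ experiment. Secretory precursor-like cells held 10.9, 12.2, 12.3 and 9.47 CPM and goblet-like cells 1.13, 2.59, 1.98 and 0.820 CPM. The precursor-like range overlapped that of stem-like cells in part, and all goblet-like libraries lay below every stem-like and every precursor-like library. Empty droplets held 7.75, 2.68, 2.38 and 3.19 CPM. Log2 against stem-like cells was -2.92 (SE 0.21, edgeR adjusted p = 9.5e-16) for goblet-like and -1.22 (SE 0.26, edgeR adjusted p = 9.8e-05) for enteroendocrine-like cells, which held 7.24, 4.23, 10.7 and 7.06 CPM. Tuft-like cells, at 15.4, 10.9, 5.29 and 7.42 CPM, were lower with a log2 of -0.67 (SE 0.25, edgeR adjusted p = 0.027), a call that was lost under 5 of the alternatives, among them the omission of either Setdb1-KO library. The differences for precursor-like and Paneth-like cells did not pass the threshold.

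Notch2 was at 7.25, 9.43, 8.95 and 6.80 CPM in stem-like cells, overlapped by dividing progenitor-like cells with 7.83, 7.19, 7.04 and 4.27 CPM, and fell in 4 of the 5 secretory classes. Precursor-like cells held 5.20, 3.86, 4.79 and 2.49 CPM, goblet-like cells 0.944, 0.924, 0.494 and 0.703 CPM and enteroendocrine-like cells 1.81, 1.41, 0.976 and 3.53 CPM. None of these 3 ranges reached the lowest stem-like library. A Notch2 UMI was held by 1, 1, 1 and 4 enteroendocrine-like and by 2, 4, 0 and 3 tuft-like barcodes, so both classes rest on few UMIs. Empty droplets, at 6.30, 5.36, 2.68 and 5.92 CPM, overlapped the precursor-like class and lay above every goblet-like library. Log2 against stem-like cells was -1.09 (SE 0.28, edgeR adjusted p = 0.0025) for precursor-like, -3.15 (SE 0.29, edgeR adjusted p = 7.5e-13) for goblet-like, -2.29 (SE 0.42, edgeR adjusted p = 7.1e-06) for enteroendocrine-like and -1.87 (SE 0.41, edgeR adjusted p = 2.2e-04) for tuft-like cells. Notch2 passed the filter on low counts only through stem-like cells, in which it was high, so its tests add nothing to the levels. The size of the goblet-like differences depended on how the cells were grouped, at -2.17 for Notch1 and -2.42 for Notch2 when classes were taken from graph clusters.

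Notch3 was hardly detected. All kept cells of the 4 Lgr5+ libraries held 0, 0, 2 and 1 Notch3 UMIs and those of the lineage-traced libraries 1, 0, 0 and 2. No library exceeded the floor of 3 UMIs, which stood for 0.0489 to 0.109 CPM in the Lgr5+ and 0.112 to 0.371 CPM in the lineage-traced libraries and covers counting error only, so no level was assigned and no test was run.

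Mfng was highest in enteroendocrine-like and secretory precursor-like cells. All kept cells of the Lgr5+ libraries held 21, 17, 37 and 43 Mfng UMIs. In the Lgr5+ experiment enteroendocrine-like cells held 7.24, 5.65, 14.6 and 9.18 CPM from 4, 4, 15 and 13 UMIs, and precursor-like cells 3.31, 3.21, 6.15 and 6.98 CPM from 7, 5, 9 and 14 UMIs. Stem-like cells held 3, 3, 2 and 1 UMIs, at or below the 3 UMIs taken as the floor. Levels in both classes lay above those of stem-like cells and of empty droplets (0.484, 0.447, 1.49 and 0.456 CPM) in every library. Tuft-like cells held 2, 0, 1 and 5 UMIs. Since Mfng passed the filter on low counts only through the classes in which it was high, a test against stem-like cells supports nothing here, and only the levels are given.

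Hes1, the transcriptional target of Notch, was highest in stem-like cells and lower in all 5 secretory classes. Stem-like cells of the Lgr5+ experiment held 149.5, 127, 138 and 143 CPM and dividing progenitor-like cells 115, 101, 102 and 104 CPM. Secretory precursor-like cells held 81.7, 80.3, 55.4 and 63.8 CPM, and goblet-like cells 32.9, 35.5, 28.9 and 34.2 CPM. The 4 classes did not overlap in this order, with every stem-like library above every dividing one, every dividing one above every precursor-like one, and every precursor-like one above every goblet-like one. Paneth-like (33.6, 35.9, 23.6 and 16.1 CPM), enteroendocrine-like (39.8, 32.5, 12.7 and 33.2 CPM) and tuft-like cells (37.0, 40.0, 19.9 and 49.9 CPM) overlapped goblet-like cells. Empty droplets held 68.8, 48.7, 44.7 and 62.9 CPM, above each of these last 4 classes in every library, whereas precursor-like cells lay above them. Log2 against stem-like cells was -1.12 (SE 0.12, edgeR adjusted p = 4.2e-10) for precursor-like, -1.94 (SE 0.11, edgeR adjusted p = 7.5e-19) for goblet-like, -2.74 (SE 0.16, edgeR adjusted p = 2.7e-18) for enteroendocrine-like, -2.05 (SE 0.15, edgeR adjusted p = 6.9e-15) for tuft-like and -1.25 (SE 0.21, edgeR adjusted p = 8.4e-06) for Paneth-like cells. The value in Paneth-like cells was -2.76 without scaling beyond the total, relative to the median shift of all genes given above. With the highest Scrublet doublet scores left out, the values became -3.84 in enteroendocrine-like and -2.88 in tuft-like cells.

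Hes6 differed from Hes1 in that it rose in the precursor-like cells. Stem-like cells held 117, 85.7, 157 and 131 CPM and secretory precursor-like cells 209.7, 167, 269 and 225 CPM, so that the precursor-like class was higher in each library and above every stem-like library. Goblet-like cells held 136, 119, 153 and 113 CPM, enteroendocrine-like cells 134, 135, 194 and 136 CPM and tuft-like cells 174, 138, 159 and 132 CPM, all overlapping one another and the stem-like class. Empty droplets were at 83.3, 72.4, 67.3 and 82.0 CPM and Paneth-like cells, at 45.6, 43.1, 47.1 and 32.3 CPM, lay below them. The log2 difference from stem-like cells was 0.70 (SE 0.10, edgeR adjusted p = 2.7e-07) for precursor-like and 0.25 (SE 0.09, edgeR adjusted p = 0.018) for goblet-like cells, and the latter was lost without either WT library or without scaling beyond the total. In Paneth-like, enteroendocrine-like and tuft-like cells the difference did not pass the threshold.

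Across these contrasts with stem-like cells in the Lgr5+ experiment, 7 of the 9 members had enough UMIs to be tested, all but Jag1 and Notch3. Mfng, which was at or below the floor in stem-like cells, is left out of the following counts, which leaves 6. In secretory precursor-like cells 5 of 6 were called, 3 higher (Dll1, Dll4 and Hes6) and 2 lower (Notch2 and Hes1), where 27.9% of all 10034 tested genes were called. In goblet-like cells 6 of 6 were called (background 69.4%), in Paneth-like cells 2 of 6 (28.6%), in enteroendocrine-like cells 4 of 6 (67.1%) and in tuft-like cells 5 of 6 (49%). The shares in goblet-like, Paneth-like, enteroendocrine-like and tuft-like cells are to be read against these high backgrounds. Dll1, Dll4 and Notch2 stay in these counts. Dll1 and Dll4 passed the filter on low counts only through classes in which they were high. Notch2 passed it only through stem-like cells, in which it was high. The calls of these genes add nothing to the levels, so the counts are not read as an excess over the shares of all genes. By size, 154 genes had a larger increase than Dll1 in precursor-like cells, 97 a larger one than Dll4, and 119 a larger decrease than Hes1. Among decreases in goblet-like cells, 48 genes exceeded Notch2 and 67 exceeded Notch1.

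**Figure D2:**
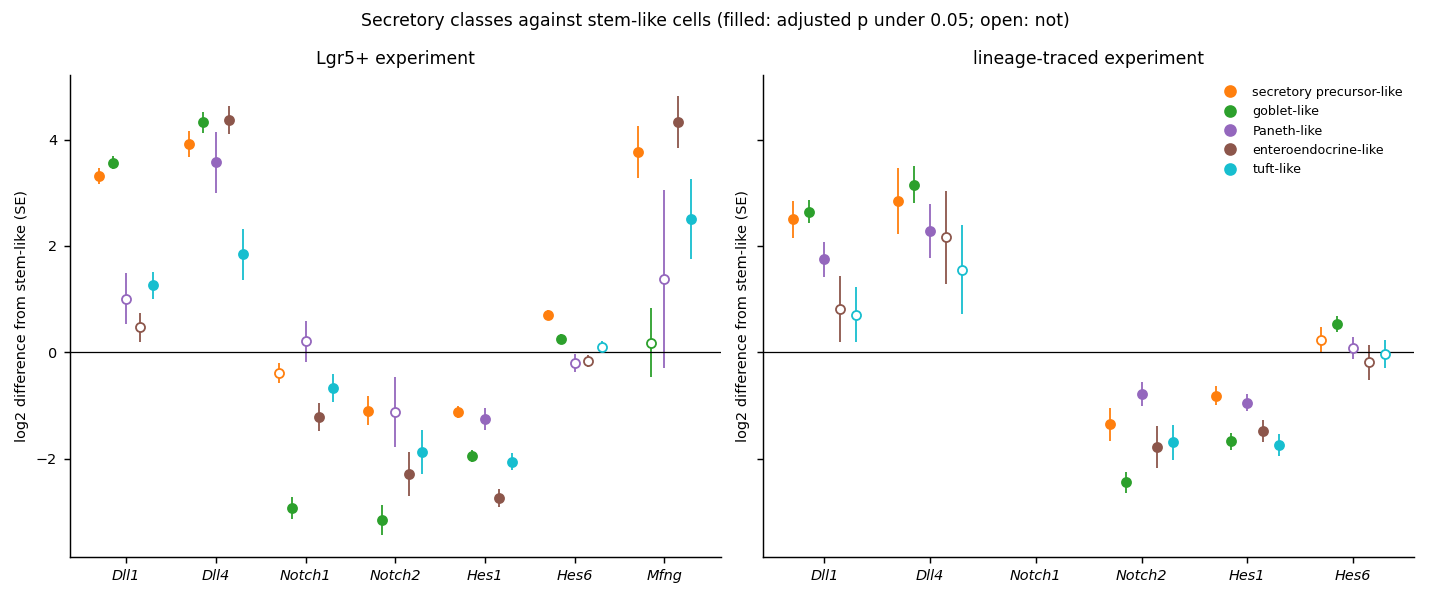
Log2 difference of each secretory class from stem-like cells (points, with bars of ±1 SE from the edgeR fit, 4 libraries per experiment, filled where the adjusted p was under 0.05) for the tested members in the Lgr5+ and the lineage-traced experiment. Dll1 and Dll4 lie above 0 and Notch2 and Hes1 below it in precursor-like and goblet-like cells of both experiments, the value of Dll1 in lineage-traced Paneth-like cells turns to −0.24 without scaling beyond the total, and Notch1 and Mfng were not tested in the lineage-traced panel. Points of Mfng rest on 1 to 3 UMIs per library in stem-like cells. Dll1 and Dll4 could be tested only because they were high in some of these classes. Notch2 in the Lgr5+ panel could be tested only because it was high in stem-like cells.

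The precursor-like class was not uniform in these genes. Its barcodes were split by whether they held a UMI of Atoh1 but not of Neurog3, the factor that commits cells to the enteroendocrine lineage, of Neurog3 but not Atoh1, or of neither. The Atoh1 part held 82, 83, 40 and 110 Lgr5+ barcodes per library, the Neurog3 part 39, 50, 51 and 99 and the part with neither 107, 53, 56 and 115, and the 3, 4, 2 and 7 barcodes with both are not described. Since the split uses UMIs of single genes, a barcode without either UMI may still express them, and the values are a description.

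Mfng UMIs lay in the Neurog3 part, with 6, 5, 9 and 12 UMIs (25.3, 19.8, 24.04 and 28.2 CPM), while the Atoh1 part held 0, 0, 0 and 0 and barcodes with neither 1, 0, 0 and 1. The Neurog3 part was thus the only one in which Mfng exceeded the floor of 3 UMIs in every library. Dll1 was at 80.2, 93.5, 87.7 and 46.2 CPM in the Atoh1 part and at 118, 123, 74.8 and 63.5 CPM in the Neurog3 part, against 31.5, 34.6, 21.5 and 35.0 CPM in barcodes with neither. Dll4 was likewise at 30.9, 37.2, 39.5 and 17.8 CPM and 25.3, 43.5, 32.1 and 16.5 CPM, against 4.78, 6.92, 1.65 and 8.74 CPM. For both ligands, the Atoh1 and the Neurog3 part overlapped each other and lay above the part with neither in every Lgr5+ library. This order of Dll1 was not kept in the lineage-traced experiment, where the parts were small. Its Atoh1 part held 75.3, 0, 22.2 and 18.7 CPM and barcodes with neither 54.1, 0, 52.5 and 100 CPM. The split is otherwise given for the Lgr5+ experiment alone.

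Hes1 was highest in barcodes with neither UMI and Hes6 in the Neurog3 part. Hes1 was at 116, 115, 99.1 and 83.0 CPM in barcodes with neither UMI, at 56.8, 76.8, 21.9 and 55.6 CPM in the Atoh1 part and at 21.1, 43.5, 24.04 and 51.7 CPM in the Neurog3 part, so that barcodes with neither lay above both other parts with no overlap. Hes6 was highest in the Neurog3 part at 379.8, 289, 382 and 298 CPM, followed by the Atoh1 part at 235, 148, 281 and 183 CPM and barcodes with neither at 148, 129, 188 and 221 CPM. Every Neurog3 library lay above every Atoh1 and neither library for Hes6, while the other parts overlapped. Notch1 was at 7.41, 10.8, 4.38 and 4.73 CPM in the Atoh1 part, 12.7, 11.9, 18.7 and 21.2 CPM in the Neurog3 part and 12.4, 13.8, 14.9 and 7.28 CPM in the rest. The Neurog3 part lay above the Atoh1 part with no overlap, on 3, 3, 7 and 9 against 6, 9, 2 and 4 UMIs, and the rest overlapped both.

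**Figure D3:**
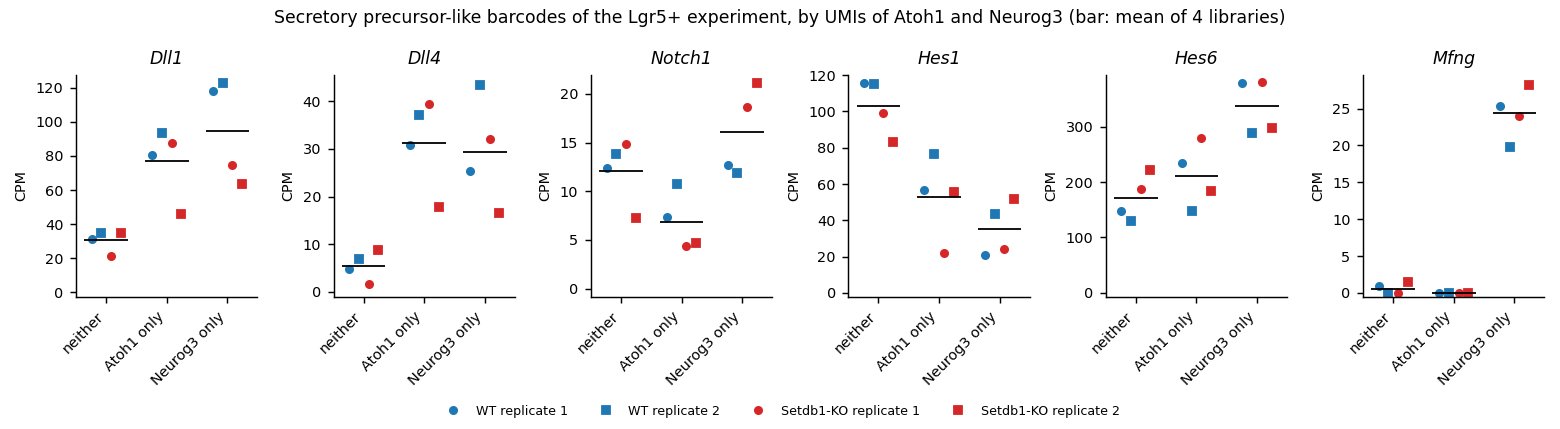
CPM (linear axes from 0) of 6 members in secretory precursor-like barcodes of the Lgr5+ experiment with no Atoh1 or Neurog3 UMI, with Atoh1 only and with Neurog3 only, each point 1 library and each bar the mean of 4. Mfng stands at 19.8 to 28.2 CPM in the Neurog3 part and at 0 in the Atoh1 part, and Hes1 is lower in both parts than in barcodes with neither.

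Shares of cells told the same order as CPM for Dll1 and Hes1. In the Lgr5+ libraries 24.5% to 39.5% of precursor-like barcodes held a Dll1 UMI, against 2.01% to 4.13% of stem-like and 1.33% to 2.76% of enterocyte-like barcodes, a mature type in which Dll1 should be absent. The median depths of these classes were 5618 to 9831, 3698 to 7964 and 5547 to 11535 UMIs. When each barcode was thinned to 2000 UMIs, the shares were 9.40% to 12.7% for precursor-like, 0.874% to 1.49% for stem-like and 0% to 1.08% for enterocyte-like cells. The stem-like share, at most 1.49%, overlapped the enterocyte-like share, so a difference between them was not detectable at this depth. Hes1 UMIs were found in 19.8% to 24.6% of thinned stem-like, 5.08% to 9.88% of enterocyte-like and 4.89% to 5.68% of goblet-like barcodes, and the stem-like share lay above both others in every library.

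In precursor-like and goblet-like cells the lineage-traced experiment gave the same directions for the Delta ligands, Notch2 and Hes1 on shallower data. Dll1 was at 8.76, 4.48, 10.96 and 6.11 CPM in stem-like cells, and at 38.0, 29.8, 54.4 and 46.3 CPM in goblet-like cells. Precursor-like cells, with 27, 8, 48 and 65 barcodes, held 58.3, 0, 36.4 and 51.9 CPM, where WT 2, with a class of 8 barcodes, held no Dll1 UMI. Goblet-like cells lay above stem-like cells and above empty droplets (11.02, 8.64, 17.4 and 10.5 CPM) in every library. Log2 was 2.65 (SE 0.22, edgeR adjusted p = 1.6e-16) for goblet-like and 2.50 (SE 0.35, edgeR adjusted p = 2.3e-07) for precursor-like cells. In Paneth-like cells, the fitted difference was 1.75 (SE 0.33, edgeR adjusted p = 2.1e-05), but the CPM were 3.78, 3.75, 10.5 and 12.0, and without scaling beyond the total the direction turned to −0.24, with the median of all genes at -1.99. The difference is thus relative to the other genes of that class. The same holds for Dll4 in Paneth-like cells, at 2.28 (SE 0.51) scaled and 0.15 unscaled. Both ligands passed the filter on low counts only through classes in which they were high, so these tests add nothing to the levels.

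Lineage-traced Dll4 was at 3.19, 2.24, 0.645 and 1.74 CPM in stem-like, 26.5, 23.9, 16.6 and 5.19 CPM in precursor-like (from 5, 1, 5 and 2 UMIs) and 21.8, 11.9, 15.6 and 14.9 CPM in goblet-like cells. Both of the latter classes were above stem-like cells in every library, and empty droplets held 6.04, 2.62, 5.96 and 2.52 CPM. Only 4, 1 and 1 stem-like barcodes of WT 1, WT 2 and Setdb1-KO 1 held a Dll4 UMI. Tests of Dll4 against stem-like cells therefore add nothing to the levels. In enteroendocrine-like cells, where the unscaled CPM of Dll4 were highest in the Lgr5+ experiment, it held 3, 0, 0 and 2 UMIs, and the difference from stem-like cells did not pass the threshold (edgeR adjusted p = 0.063), although DESeq2 called it. Dll1 in tuft-like cells, at 7.36, 0, 0 and 19.6 CPM from 1, 0, 0 and 11 UMIs, did not pass it either (edgeR adjusted p = 0.37). Jag1 was at 9.56, 15.7, 13.5 and 10.5 CPM in stem-like and 12.8, 13.7, 16.4 and 16.3 CPM in dividing progenitor-like cells, with 1.21, 0.749, 3.49 and 1.85 CPM in Paneth-like cells and 2.10, 2.27, 2.75 and 4.61 CPM in empty droplets. The stem-like and dividing ranges overlapped and both lay above the other 2 in every library, with no test run between classes.

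**Figure D4:**
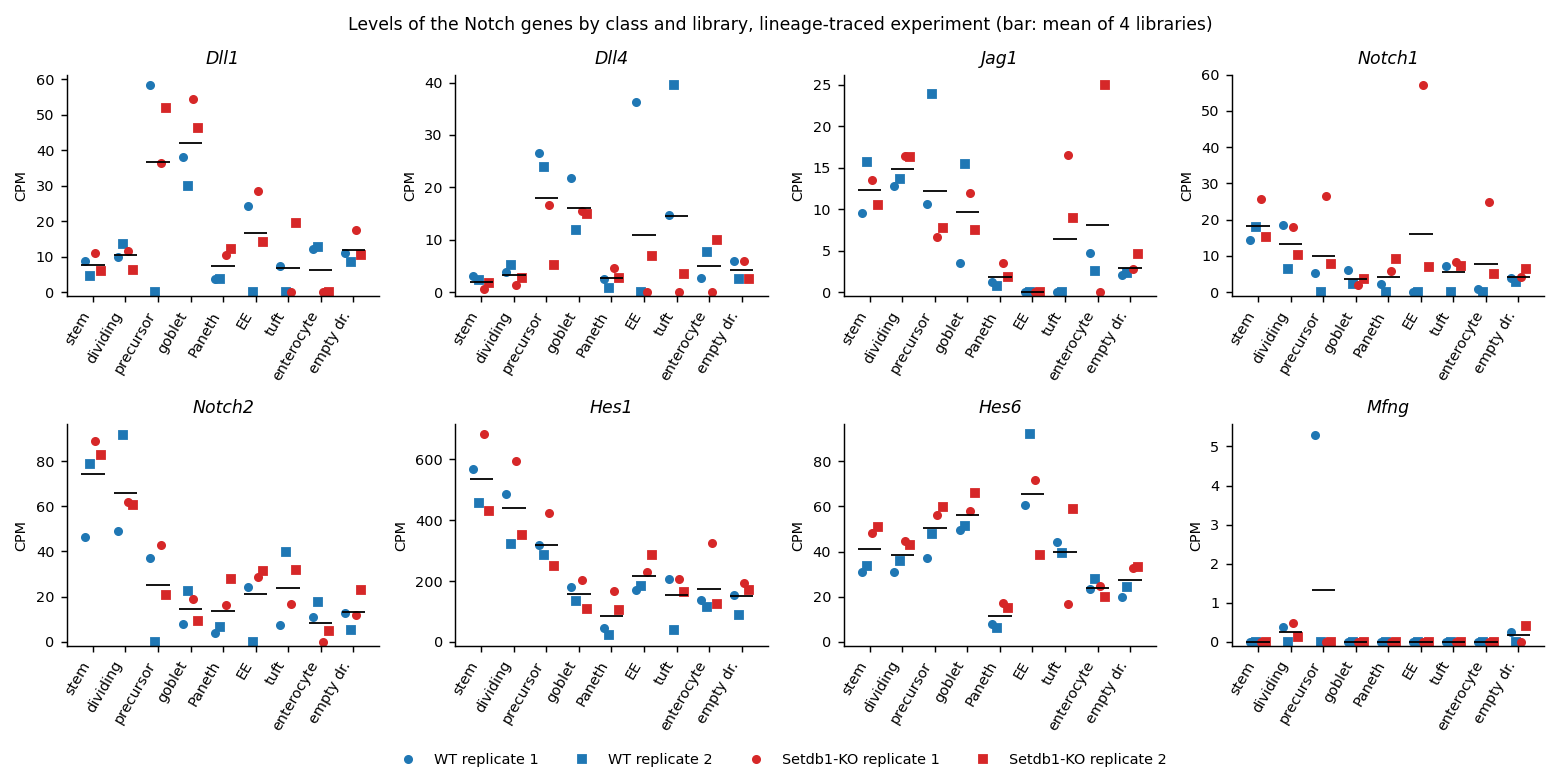
CPM (linear axes from 0) of 8 members by class in the lineage-traced experiment, each point 1 library and each bar the mean of the 4 libraries. Goblet-like Dll1 at 29.8 to 54.4 CPM lies above stem-like cells, Notch2 and Hes1 are highest in stem-like and dividing progenitor-like cells, Dll1 in Paneth-like cells overlaps stem-like cells on this unscaled axis although the scaled fit put it higher, and WT 2 has 8 barcodes in the precursor-like class.

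Among the receptors of the lineage-traced experiment, Notch2 was at 46.2, 78.5, 89.0 and 82.9 CPM in stem-like and 49.0, 91.7, 61.9 and 60.6 CPM in dividing progenitor-like cells, and fell to 7.86, 22.7, 19.1 and 9.25 CPM in goblet-like cells. No goblet-like library reached the lowest stem-like one. Log2 was -2.44 (SE 0.20, edgeR adjusted p = 3.4e-17) for goblet-like, -1.36 (SE 0.30, edgeR adjusted p = 0.0015) for precursor-like, -1.78 (SE 0.40, edgeR adjusted p = 4.4e-04) for enteroendocrine-like, -1.69 (SE 0.33, edgeR adjusted p = 5.8e-05) for tuft-like and -0.78 (SE 0.22, edgeR adjusted p = 0.0050) for Paneth-like cells. In WT 1 and WT 2 only 2 and 0 enteroendocrine-like and 1 and 1 tuft-like barcodes held a Notch2 UMI, so both of these calls rest on few UMIs there. Leaving out Setdb1-KO 2 ended the call in precursor-like cells (-0.94), and leaving out WT 1 or using DESeq2 ended that in Paneth-like cells. The Paneth-like value was -2.71 without scaling beyond the total and -1.46 with stricter markers, the goblet-like value -1.68 with graph clusters, and the tuft-like value -2.37 without Setdb1-KO 2. Notch1 was at 14.3, 17.9, 25.8 and 15.1 CPM in stem-like and 6.11, 2.39, 2.12 and 3.60 CPM in goblet-like cells, with no overlap, against 3.94, 2.71, 4.13 and 6.29 CPM in empty droplets, and had too few UMIs for the test.

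Hes1 in the lineage-traced experiment was at 568, 457, 683 and 429 CPM in stem-like, 318, 287, 424 and 249 CPM in precursor-like and 181, 136, 205 and 107 CPM in goblet-like cells, against 154, 87.0, 193 and 171 CPM in empty droplets. All stem-like libraries lay above all precursor-like and all goblet-like ones, and goblet-like cells overlapped the empty droplets. Log2 was -0.81 (SE 0.18, edgeR adjusted p = 0.0012) for precursor-like, -1.67 (SE 0.16, edgeR adjusted p = 1.0e-14) for goblet-like, -1.48 (SE 0.21, edgeR adjusted p = 5.3e-08) for enteroendocrine-like, -1.74 (SE 0.20, edgeR adjusted p = 9.5e-11) for tuft-like and -0.95 (SE 0.16, edgeR adjusted p = 3.7e-06) for Paneth-like cells. Without scaling beyond the total the call in precursor-like cells was lost and the Paneth-like value was -2.85. Hes6 was at 31.1, 33.6, 48.4 and 50.9 CPM in stem-like and 49.8, 51.3, 58.0 and 65.8 CPM in goblet-like cells, where it was higher by 0.54 (SE 0.15, edgeR adjusted p = 0.0020), a call lost without scaling beyond the total and with graph clusters. The goblet-like level was higher within each library, and the ranges met only at the upper end of the stem-like class. In precursor-like cells, at 37.1, 47.8, 56.3 and 59.7 CPM, the difference did not pass the threshold. Mfng had at most 3 UMIs over all kept cells of a lineage-traced library.

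Of the 5 members tested between lineage-traced classes, all but Jag1, Notch1, Notch3 and Mfng, 4 were called in precursor-like cells, where 5.36% of 6139 tested genes were called. All 5 were called in goblet-like cells (background 47.4%), 4 in Paneth-like cells (30.3%), 2 in enteroendocrine-like cells (22.5%) and 2 in tuft-like cells (21.4%). In precursor-like cells 32 genes had a larger increase than Dll1 and 21 a larger one than Dll4. The counts of called members include Dll1 and Dll4. Both passed the filter on low counts only through classes in which they were high, so their calls add nothing to the levels.

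The second comparison asked whether the members differed between Setdb1-KO and WT. No member passed the edgeR threshold in any of these comparisons as fitted, and alternatives that called a member are given below. Over all kept cells of the Lgr5+ experiment, 0 of 8 tested members passed the edgeR threshold, where 1.34% of 13662 genes did. By class, the counts were 0 of 7 in stem-like cells (background 0.699%), 0 of 7 in dividing progenitor-like cells (0.583%), 0 of 6 in secretory precursor-like cells (0.886%), 0 of 5 in goblet-like cells (0.386%), 0 of 2 in Paneth-like cells (0%), 0 of 4 in enteroendocrine-like cells (0.099%), 0 of 3 in tuft-like cells (0.0606%) and 0 of 2 in enterocyte-like cells (0.561%). At an unadjusted p under 0.05 edgeR gave 3 members over all kept cells (Notch2, Hes6 and Mfng), 1 in stem-like (Hes6), 1 in dividing progenitor-like (Hes6) and 3 in precursor-like cells (Dll1, Hes1 and Hes6), and 0 in the remaining classes. At that level were 2388 of 13662 genes over all kept cells, 1308 of 11153 in stem-like and 1532 of 11150 in dividing progenitor-like cells. In precursor-like cells 729 of 8686 genes were. DESeq2 called 1 member in these 9 fits, Hes6 in stem-like cells, and the share of all genes it called is not given here. The counts of 0 are to be read against backgrounds of at most 1.34%. With 2 libraries a group, an exact two-sided permutation test of a single value cannot go below a p of 0.33.

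Hes6 was higher in both Setdb1-KO libraries in stem-like, dividing progenitor-like and precursor-like cells of the Lgr5+ experiment, without passing the threshold. In stem-like cells its levels were 117, 85.7, 157 and 131 CPM, so both Setdb1-KO libraries were above both WT libraries, with a log2 of Setdb1-KO over WT of 0.55 (SE 0.13, edgeR adjusted p = 0.13). The difference lay past the threshold with DESeq2 (adjusted p = 0.048), without the filter on low counts, with graph clusters, with the replicate number as a block and without WT 1 (0.72), and the edgeR or DESeq2 adjusted p was 0.0011 to 0.32 over all alternatives. In dividing progenitor-like cells the levels were 95.2, 72.0, 124 and 95.9 CPM, with both Setdb1-KO libraries above both WT libraries by a narrow margin, and the log2 was 0.40 (SE 0.14, edgeR adjusted p = 0.27). This difference passed the threshold without the filter on low counts, without Setdb1-KO 2 (0.57) and with the replicate number as a block, and the edgeR or DESeq2 adjusted p was 0.012 to 0.60 over all alternatives. In precursor-like cells, at 209.7, 167, 269 and 225 CPM, the groups again did not overlap and the log2 was 0.38 (SE 0.14, edgeR adjusted p = 0.39). The Neurog3 part, in which Hes6 was highest, made up 16.9, 26.3, 34.2 and 29.9% of the precursor-like barcodes, more in both Setdb1-KO libraries, and its part in the difference was not tested. Within the Neurog3 part and within the Atoh1 part the levels of Hes6 given above overlapped between the genotypes, and in barcodes with neither UMI they did not. Over all kept cells (107, 83.9, 135 and 104 CPM) the groups overlapped, with a log2 of 0.33 (SE 0.12, edgeR adjusted p = 0.22). In empty droplets Hes6 was at 83.3, 72.4, 67.3 and 82.0 CPM, with no such separation.

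In precursor-like cells of the Lgr5+ experiment, Dll1 and Hes1 were lower in both Setdb1-KO libraries than in either WT library without passing the threshold. Dll1 was at 60.0, 82.9, 57.4 and 46.9 CPM, with a log2 of -0.46 (SE 0.19, edgeR adjusted p = 0.48). Without WT 1 this became -0.76 (edgeR adjusted p = 0.034), a fit in which the lone WT library is assumed to vary like the 2 Setdb1-KO libraries, while the edgeR or DESeq2 adjusted p ran from 0.034 to 1.00 over all alternatives. Hes1 was at 81.7, 80.3, 55.4 and 63.8 CPM, with a log2 of -0.43 (SE 0.16, edgeR adjusted p = 0.33). The Neurog3 part, larger in both Setdb1-KO libraries, held less Hes1 than barcodes with neither UMI, so this shift in make-up moves with the difference of Hes1. Dll1 in the Neurog3 part lay above barcodes with neither UMI in every library. The part of the shift in either difference was not tested. Within the parts given above, the genotypes overlapped for Dll1 in the Atoh1 part and in barcodes with neither UMI but not in the Neurog3 part. For Hes1 they overlapped in the Neurog3 part but not in the other two. In goblet-like cells Dll1, at 50.4, 65.9, 78.8 and 50.3 CPM, overlapped between the genotypes. Dll4 overlapped in precursor-like, goblet-like and enteroendocrine-like cells.

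Over all kept cells of the Lgr5+ experiment, Notch2 was at 5.64, 5.62, 4.71 and 3.41 CPM, lower in both Setdb1-KO libraries, with a log2 of -0.49 (SE 0.17, edgeR adjusted p = 0.21). Within stem-like cells, at 7.25, 9.43, 8.95 and 6.80 CPM, the genotypes overlapped. Within dividing progenitor-like cells, at 7.83, 7.19, 7.04 and 4.27 CPM, both Setdb1-KO libraries were below both WT libraries, without passing the threshold (edgeR adjusted p = 0.43). The share of stem-like barcodes was 28.4, 31.0, 22.6 and 17.8% and that of dividing progenitor-like barcodes 23.3, 21.1, 15.4 and 20.4% of kept barcodes. Mfng was at 0.545, 0.410, 1.34 and 0.701 CPM over all kept cells, higher in both Setdb1-KO libraries, with a log2 of 1.04 (SE 0.40, edgeR adjusted p = 0.25). The share of enteroendocrine-like barcodes, the class in which Mfng was highest, was 2.31, 2.72, 6.19 and 3.89% in the same libraries, and the part of either share in these differences was not tested. Notch1 (9.22, 7.81, 8.04 and 5.64 CPM) and Hes1 (95.2, 86.9, 78.2 and 81.8 CPM) did not pass the threshold, with a log2 of -0.33 (SE 0.16, edgeR adjusted p = 0.34) and -0.17 (SE 0.09, edgeR adjusted p = 0.35). In such pooled sums, fewer cells of a type and less RNA per cell cannot be told apart.

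**Figure D5:**
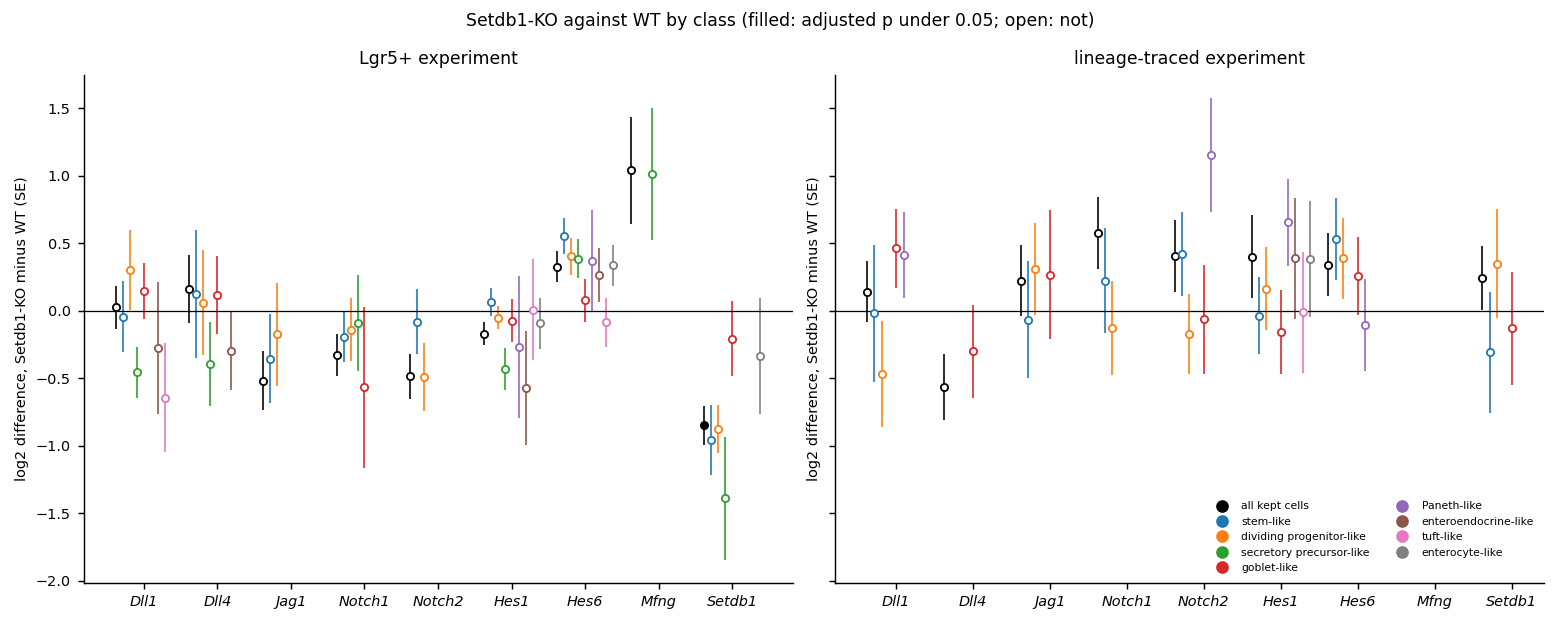
Log2 of Setdb1-KO over WT (points, with bars of ±1 SE from edgeR, 2 libraries per group, filled where the adjusted p was under 0.05) for the tested members and Setdb1, over all kept cells and by class in both experiments. The only filled point is Setdb1 over all kept cells of the Lgr5+ experiment at −0.85, and Hes6 lies above 0 in stem-like, dividing progenitor-like and precursor-like cells without passing the threshold. Without scaling beyond the total 4 members of lineage-traced Paneth-like cells passed it, as did 2603 of all 3507 tested genes.

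In the lineage-traced experiment, 0 of 7 tested members were called over all kept cells, where 8.73% of 12205 genes were called. The counts were 0 of 6 in stem-like (background 1.5%), 0 of 6 in dividing progenitor-like (1.89%), 0 of 6 in goblet-like (2.2%), 0 of 4 in Paneth-like (2.59%), and 0 of 1 in each of enteroendocrine-like (1.26%), tuft-like (1.59%) and enterocyte-like cells (17.2%). Precursor-like cells were not compared, since WT 2 held fewer than 10 of them. At an unadjusted p under 0.05 edgeR gave 1 member over all kept cells (Dll4) and 1 in Paneth-like cells (Notch2), and 0 in the other fits, and DESeq2 called 0. Over all kept cells 2478 of 12205 genes were at that unadjusted level in edgeR, and in Paneth-like cells 693 of 3507.

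Hes1 over all kept lineage-traced cells was at 233, 159, 469 and 289 CPM and Notch2 at 20.4, 31.5, 52.6 and 47.1 CPM. Both libraries labelled Setdb1-KO lay above both WT libraries for each gene. The log2 was 0.40 (SE 0.31, edgeR adjusted p = 0.50) for Hes1, 0.41 (SE 0.27, edgeR adjusted p = 0.43) for Notch2, 0.58 (SE 0.27, edgeR adjusted p = 0.25) for Notch1 and 0.34 (SE 0.23, edgeR adjusted p = 0.45) for Hes6. Dll4 went the other way, with a log2 of -0.56 (SE 0.24, edgeR adjusted p = 0.22), on levels of 5.96, 3.96, 5.22 and 4.67 CPM that overlapped between the genotypes, and with -0.05 without scaling beyond the total. Without scaling beyond the total Hes1, Notch2, Notch1 and Hes6 passed the threshold, at 0.95, 0.95, 1.13 and 0.86, while the median of all genes moved by 0.54. At that setting 3807 of 12205 genes passed it. Notch1 and Notch2 also passed it with the replicate number as a block. The Paneth share of kept UMIs given above, lower in the libraries labelled Setdb1-KO, moves with these CPM. The share of stem-like barcodes was 8.36, 4.77, 13.1 and 13.8% and that of dividing progenitor-like barcodes 11.8, 6.41, 13.2 and 17.3%. Both were higher in the libraries labelled Setdb1-KO, and the part of these shares was not tested.

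In stem-like cells of the lineage-traced experiment Hes6 was at 31.1, 33.6, 48.4 and 50.9 CPM, higher in both libraries labelled Setdb1-KO, with a log2 of 0.53 (SE 0.30, edgeR adjusted p = 0.66). In dividing progenitor-like cells it was at 30.9, 35.8, 44.5 and 43.0 CPM, with a log2 of 0.39 (SE 0.30, edgeR adjusted p = 0.89). In empty droplets it was at 19.9, 24.4, 32.5 and 33.1 CPM, higher in the libraries labelled Setdb1-KO as well, and the part of free RNA was not tested. In Paneth-like cells Notch2 was at 3.78, 6.74, 16.3 and 27.8 CPM and Hes1 at 46.7, 23.98, 167 and 104 CPM, both higher in the libraries labelled Setdb1-KO, with a log2 of 1.15 (SE 0.42, edgeR adjusted p = 0.17) and 0.65 (SE 0.32, edgeR adjusted p = 0.29). Without scaling beyond the total the values were 2.33 and 1.87, both past the threshold, relative to a median of all genes of 1.21. Leaving out WT 1 lowered the scaled value of Notch2 to 0.50. Median depth of the Paneth-like barcodes was 8658.5, 6683, 1478 and 1889 UMIs. Their median of Paneth marker UMIs was 7344, 7156, 4582 and 4267 per 10k UMIs. The part of depth and marker share in the differences of these cells was not tested. Notch2 in these cells lay below empty droplets (12.6, 5.24, 11.9 and 23.1 CPM) in WT 1 and above them in the other libraries, and Hes1 lay below them (154, 87.0, 193 and 171 CPM) in all 4.

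Whether the genotype difference itself differed between the experiments was tested as an interaction over the 8 libraries, and 0 of 46 member tests were called in edgeR, with 5 at an unadjusted p under 0.05. The share of all genes at that unadjusted level was not taken. The counts were 0 of 8 over all kept cells (background 7.58% of all genes), 0 of 6 in stem-like (0.806%), 0 of 7 in dividing progenitor-like (0.979%), 0 of 7 in goblet-like (0.763%), 0 of 5 in Paneth-like (1.06%), 0 of 5 in enteroendocrine-like (0.221%), 0 of 4 in tuft-like (0.564%) and 0 of 4 in enterocyte-like cells (3.5%). The lowest adjusted p was that of Notch2 over all kept cells, with a difference of lineage-traced minus Lgr5+ log2 of 0.93 (SE 0.30, edgeR adjusted p = 0.085), followed by Notch1 with 0.89 (SE 0.33, edgeR adjusted p = 0.14).

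Of 46 other genes of the pathway listed by function, such as proteases, ubiquitin ligases, glycosyltransferases, nuclear partners and targets, 1 to 35 had enough UMIs to be tested in a given comparison of the genotypes, and 1 call was made, that of Adam10, a protease that sheds the receptor, among 8 tested. It was lower in lineage-traced enterocyte-like cells labelled Setdb1-KO, with a log2 of -1.98 (SE 0.72, edgeR adjusted p = 0.037), at 57.0, 73.4, 0 and 20.0 CPM from 61, 29, 0 and 4 UMIs. The background of called genes in that fit was high, at 17.2%, and the class held 702, 184, 17 and 49 barcodes.

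Between classes of the Lgr5+ experiment, 27 of the 46 were tested. In precursor-like cells 5 were higher and 4 lower (27.9% of all tested genes were called), in goblet-like cells 14 were higher and 5 lower (69.4%), in Paneth-like cells 5 were higher and 1 lower (28.6%), in enteroendocrine-like cells 11 were higher and 4 lower (67.1%) and in tuft-like cells 9 were higher and 2 lower (49%). The median log2 of the 27 was 0.02 against 0.01 for all genes in precursor-like cells, 0.32 against 0.01 in goblet-like, 0.28 against -0.06 in Paneth-like, 0.40 against 0.08 in enteroendocrine-like and 0.17 against 0.03 in tuft-like cells. In the lineage-traced experiment 15 were tested, and the counts higher and lower were 0 and 0, 2 and 2, 4 and 0, 1 and 2, and 0 and 2 in the same order of classes, where 5.36%, 47.4%, 30.3%, 22.5% and 21.4% of all tested genes were called.

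Nrarp, a target of Notch that dampens the signal, followed Hes1. It was at 17.9, 18.3, 26.3 and 18.3 CPM in stem-like, 14.6, 11.6, 9.57 and 14.0 CPM in precursor-like and 6.80, 4.99, 3.95 and 7.74 CPM in goblet-like cells, lower with a log2 of -0.78 (SE 0.20, edgeR adjusted p = 0.0020) and -1.56 (SE 0.17, edgeR adjusted p = 7.1e-11). Both classes lay below every stem-like library. Lfng, a glycosyltransferase related to Mfng, was at 2.96, 2.80, 4.20 and 4.13 CPM in stem-like and 17.5, 7.71, 14.4 and 11.5 CPM in precursor-like cells, with no overlap. Lfng passed the filter on low counts only through classes in which it was high, so only its levels are given. Maml3, a nuclear partner of the cleaved receptor, was at 8.24, 5.60, 6.03 and 7.04 CPM in stem-like and 70.6, 46.6, 66.4 and 50.8 CPM in enteroendocrine-like cells, higher by 2.65 (SE 0.16, edgeR adjusted p = 2.2e-18).

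Some called genes had almost no UMIs in stem-like cells and are given by their levels only, and levels of pathway genes in empty droplets were not taken. Dner, a Delta-like and Notch-like transmembrane protein, held 0, 0, 0 and 1 UMIs in stem-like cells and was at 27.2, 32.5, 17.6 and 19.1 CPM in enteroendocrine-like cells. Neurl1a, a ubiquitin ligase that acts on Delta ligands, was at 12.3, 7.27, 10.6 and 13.5 CPM in tuft-like cells, with 0, 1, 1 and 1 UMIs in stem-like cells. Dll3, a Delta ligand that does not activate receptors on neighbouring cells, was at 15.4, 9.70, 2.65 and 4.05 CPM in tuft-like cells from 10, 8, 2 and 6 UMIs, with 2, 1, 0 and 2 UMIs in stem-like cells. In each of these classes the level was above that of stem-like cells in all 4 libraries, and the counts of higher genes above include such genes, which could be tested only because they were high in another class. None was particular to the class named. Dll3 was also counted as higher in precursor-like, goblet-like and Paneth-like cells, Neurl1a in goblet-like and enteroendocrine-like cells, and Dner in precursor-like cells.

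The genes whose levels followed each member most closely were taken from the 8 classes of the 2 Lgr5+ WT libraries, which gives 16 points per gene, among 9035 genes with a mean of at least 5 CPM. The points of a library share its depth and sort, and Pearson's r of log2(CPM + 5) is given as a description. Dll1 was followed by Fgfr2 (r = 0.91), Klf4 (r = 0.88) and Litaf (r = 0.88), and Dll4 by Cbfa2t3 (r = 0.95), Mcf2l (r = 0.93) and Btg2 (r = 0.93), the first of which was a marker of the precursor-like class. Notch1 was closest to Ascl2 (r = 0.94), Nrtn (r = 0.94) and Car12 (r = 0.93), the first a marker of the stem-like class. Notch2 was close to Impa2 (r = 0.91) and Nrarp (r = 0.90), where Nrarp was also on the list of pathway genes. For Hes1 the genes given are Impa2 (r = 0.93) and Tfam (r = 0.93), so Impa2 was shared with Notch2. For Hes6 they were Mpp7 (r = 0.92), Ktn1 (r = 0.91) and Dhx32 (r = 0.91), for Mfng Rap1gap2 (r = 0.91), Olfm1 (r = 0.91) and Fgd2 (r = 0.90), and for Jag1 Nmrk1 (r = 0.84), A430035B10Rik (r = 0.80) and Lrrc1 (r = 0.79). Notch3 was too low to be ranked.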

How the data were processed

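The authors deposited UMI counts per gene and barcode for 8 single-cell RNA libraries made by 10x 3′ counting. The submitters' processing notes name mm10, Cell Ranger 6.1.1 and Seurat 5.0.3, while the headers of the 8 matrices name Cell Ranger 4. The authors' own filters and doublet removal had not been applied to these matrices. The members and gene lists were chosen with earlier results of these data known.

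Barcodes with 1000 (Lgr5+) or 500 (lineage-traced) to 18000 UMIs and under 5% mitochondrial UMIs were kept. A barcode entered a class when its marker UMIs had odds of at least 2 times those in empty droplets (under 100 UMIs), with at least 3 marker UMIs of at least 2 of the class's markers, and for mature classes a Poisson p under 0.0001. The classes were stem, dividing progenitor, secretory precursor, goblet, Paneth, enteroendocrine, tuft and enterocyte, beside T cell, plasma cell, endothelial and mesenchymal. Barcodes with more than 1 mature class (0.50% to 2.10% of a library) were left out as mixed, which is how doublets were treated. CPM are UMIs of a gene per 1000000 UMIs of the class in a library, with no scaling beyond the total. Genes overlapping on opposite strands can share reads only if strand was not used in counting, which is not given in the sources used here.

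UMIs were summed per library, or per library and class, and tested with edgeR's quasi-likelihood test (edgeR 4.0.16, R 4.3.3, filterByExpr, TMM), with Benjamini-Hochberg adjustment over all genes tested and a threshold of 0.05. Classes were compared with stem-like cells with the library as a block, genotypes by class where each library held at least 10 barcodes. Every member and every called pathway gene could be named. For likeness, the 3 genes with the highest r were taken, of which 1 for Notch2 and 1 for Hes1 are not reported here. The fits were tested on simulated data. Alternatives were RLE size factors, no scaling beyond the total, DESeq2 1.42.0, no filter on low counts, each library left out, a replicate block, a mitochondrial limit of 10%, a doubled UMI minimum and graph clusters (scanpy 1.11.5, members left out). After the data were seen, a marker threshold of 3 times, classed barcodes only, the highest Scrublet scores left out (0.8% per 1000 barcodes, since its own threshold marked 4 barcodes in 1 library and 0 in the others) and a crossed pairing were added. Other samples of the series were not used here.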

Additional observations from a re-analysis of the deposited data

How the results depend on the processing

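The number of members called against stem-like cells stayed within 1.5 times under every alternative run, at 17 to 29 beside 25 of 35 tests in the Lgr5+ experiment and at 13 to 19 beside 17 of 25 in the lineage-traced experiment. These counts include Mfng, Dll1 and Dll4, which could be tested only because they were high in some classes. Notch2 in the Lgr5+ experiment could be tested only because it was high in stem-like cells. Of the called class differences of members, over their alternatives, 493 kept direction and call, 15 lost the call and 1 turned, Dll1 in lineage-traced Paneth-like cells without scaling beyond the total (−0.24). Differences that were not called are outside this count, and DESeq2 called 1 of them, Dll4 in lineage-traced enteroendocrine-like cells. For genotype by class in the Lgr5+ experiment, 0 members became 1 with DESeq2, 2 without the filter on low counts, 1 with graph clusters, and 0 to 2 when 1 library was left out, where the lone library of its group is assumed to vary like the other group. In the lineage-traced experiment 0 became 4 without scaling beyond the total, both over all kept cells and by class. At that setting 3807 of 12205 genes were called over all kept cells and 2603 of 3507 in Paneth-like cells. For the genotype, kept and changed calls were counted over a chosen list of effects of members and Setdb1, not over every effect tested. Over the alternatives of that list, 257 were the same, 17 passed the threshold and 6 lost it, all 6 of Setdb1. Beyond the scaling itself, the cause was not tested.

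With the replicate number as a block, the Lgr5+ count by class was 2 (Hes6 in stem-like and dividing progenitor-like cells, log2 0.56 and 0.41), the lineage-traced count over all kept cells was 2 (Notch1 and Notch2, 0.65 and 0.44), and the call of Setdb1 was lost. The labels give the libraries a common number and no other tie, and same-numbered deviations correlated at −0.15 to 0.31 over genes. The crossed pairing, run only where this was under −0.1 (lineage-traced enteroendocrine-like cells), called 0 members.

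Without scaling beyond the total, the share of called genes that were higher than in stem-like cells moved from 54.6% to 77.2% in precursor-like, 48.6% to 4.24% in Paneth-like, 54.4% to 77.4% in enteroendocrine-like and 54.0% to 70.4% in tuft-like cells of the Lgr5+ experiment, and from 58.2% to 1.05%, 45.2% to 89.9% and 46.4% to 72.9% in the last 3 of these of the lineage-traced experiment, where RLE factors gave 58.2% to 72.2%, 45.2% to 73.6% and 46.4% to 58.9%. For the genotype it moved from 50% to 64.3% and 75.0% to 38.5% in enteroendocrine-like and tuft-like Lgr5+ cells, and from 17.6% to 87.1% over all kept cells, 9.57% to 25.2% in stem-like, 23.1% to 98.9% in Paneth-like and 26.5% to 42.8% in enterocyte-like lineage-traced cells. The number of called genes changed by over 1.5 times without scaling beyond the total in the genotype comparison of the Lgr5+ experiment in all kept cells (183 to 363), dividing progenitor-like cells (65 to 133), Paneth-like cells (0 to 178), enteroendocrine-like cells (8 to 14) and tuft-like cells (4 to 13), the class comparison of the Lgr5+ experiment in Paneth-like cells (2871 to 7895), the genotype comparison of the lineage-traced experiment in all kept cells (1066 to 3807) and Paneth-like cells (91 to 2603), and the class comparison of the lineage-traced experiment in secretory precursor-like cells (329 to 184), Paneth-like cells (1863 to 5790), enteroendocrine-like cells (1380 to 909) and tuft-like cells (1311 to 697). Jag1, Notch3 and Mfng had few UMIs, and the lineage-traced precursor-like class few barcodes.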
